A study of Mus musculus with 2 samples.

Results

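The cells described here were macrophages of the mouse colon that carried both a monocyte gene, Ly6c2, and the 3 genes of complement C1q, a combination that would fit a monocyte on its way to becoming a tissue macrophage. A cell was counted when it held at least 1 UMI of Csf1r, the receptor for macrophage colony-stimulating factor, at least 1 UMI each of C1qa, C1qb and C1qc, at least 3 Ly6c2 UMIs per 10000 UMIs of the cell, and 0 UMIs of Nos2, Cd3e and Cd79a, which mark inflammatory macrophages, T cells and B cells. A UMI is a molecular barcode that counts each captured RNA molecule once. These limits gave 467 C1q+ Ly6c2+ cells among 20052 cells kept in the series, 145 in the library titled Runx3_fl and 322 in the library titled Runx3. They were set beside 1453 monocytes, which met the same limits but held 0 UMIs of all 3 C1q genes, and beside 320 Ly6c2-low macrophages, which met the same limits but held fewer than 3 Ly6c2 UMIs per 10000.

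Colon macrophages are renewed from blood. Monocytes that bear Ly6C on their surface enter the lamina propria of the gut, where they lose Ly6C and CCR2 and gain MHC class II, CX3CR1, CD206 and the scavenging and complement genes of the resident cell. Cells that hold both programmes are usually read as intermediates of that sequence, although a single sampling shows levels and not the history of a cell. C1q is the recognition part of the classical complement pathway and is made in bulk by tissue macrophages, and Ly6c2 encodes one of the Ly6C proteins.

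Both libraries were prepared from leukocytes of the colon lamina propria, taken from the interphase of a Percoll gradient with dead cells removed by 7-AAD, and the labels call the cells cd11b+. The study compared RUNX3 fl/fl-Lyz2-Cre mice, in which Cre is driven by the lysozyme gene of myeloid cells, with RUNX3 fl/fl littermates, described as pooled young adult males, and no treatment is named in the labels. Cre is not mentioned in either title, so the libraries are named by title here and no genotype is assigned. Each group was 1 pooled library, so no difference between them has a replicate check, no test was run, and every interval covers counting error only.

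In the 3' counts, Runx3 (ENSMUSG00000070691, chromosome 4, 135120652 to 135177990), the gene targeted in the study, stood in the C1q+ Ly6c2+ cells at 134 (119 to 151) CPM in library Runx3_fl and at 229 (215 to 243) CPM in library Runx3, where CPM is counts per 1000000, the gene's UMIs scaled to the total UMIs of the class and the brackets hold the 95% Poisson interval. The higher level was in the library whose title lacks the suffix fl, and the counts do not show whether a deleted exon is missing. The libraries held 12968 and 8953 cells, of which 11885 and 8167 were kept, with a median of 9573 and 5731 UMIs per kept cell. They also stood apart in another way. In library Runx3_fl, 2756 kept cells held Xist without a UMI of 4 Y-linked genes and 7059 held Y-linked UMIs without Xist, whereas library Runx3 had 0 cells with Xist alone, so library Runx3_fl was a mixture of cells with either transcript. Among the C1q+ Ly6c2+ cells of that library 12 had Xist alone, 111 had Y-linked genes alone, 15 had both and 7 had neither. Cells with both were 10.3% of them, against 6.31% of monocytes, 7.14% of Ly6c2-low macrophages and 6.66% of kept cells there. Kept cells with both had a median of 18496 UMIs, against 10256 with Xist alone and 9817 with Y-linked genes alone. Whether cells with both were doublets was not tested. Of the barcodes, 37 occurred in both libraries, and 3 of the C1q+ Ly6c2+ cells of each library carried one.

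The combination was more frequent in library Runx3. There 322 of 8167 kept cells met the limits, 3.94% (95% Clopper-Pearson interval 3.53 to 4.39), against 145 of 11885 in library Runx3_fl, 1.22% (1.03 to 1.43). Monocytes were also the larger share in library Runx3, at 11.0% (10.3 to 11.7) against 4.67% (4.30 to 5.06), while Ly6c2-low macrophages took 1.69% (1.42 to 1.99) and 1.53% (1.32 to 1.77). Among the 3 classes together the C1q+ Ly6c2+ cells were 23.7% (21.5 to 26.1) in library Runx3 and 16.4% (14.1 to 19.1) in library Runx3_fl. Within library Runx3_fl the share differed between cells with Xist alone, 0.435% (0.225 to 0.759), and cells with Y-linked genes alone, 1.57% (1.30 to 1.89). The part of this makeup in the difference between libraries was not tested. With cells that held at least 2 markers of another lineage left out, the order of the libraries turned. That step took out 84.3% and 92.2% of kept cells and left 55 and 12 C1q+ Ly6c2+ cells. These were 2.95% of the cells left in library Runx3_fl and 1.88% of those left in library Runx3. No interval was computed for these 2 shares. The step also took cells of the other lineages out of the base, so these shares are not of the same base as 1.22% and 3.94%.

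The limits fell within a continuum of cells. Without the exclusions 260 and 473 cells would have met them in libraries Runx3_fl and Runx3. Nos2 was present in 74 and 44 of those, Cd3e in 50 and 48, and Cd79a in 3 and 82. Close to the Ly6c2 limit, 26 and 17 C1q+ Ly6c2+ cells held 3 to 4 UMIs per 10000, and 20 and 19 cells just outside held 2 to 3. On the C1q side, 79 cells of library Runx3_fl and 356 of library Runx3 passed the other limits with 1 of the 3 C1q genes detected, and 74 and 167 with 2 of them, and so were in no class.

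In library Runx3 the C1q+ Ly6c2+ cells were the deepest of the 3 classes. The C1q+ Ly6c2+ cells had a median of 13905 and 12541 UMIs per cell in libraries Runx3_fl and Runx3, the monocytes 12479 and 8176.5, and the Ly6c2-low macrophages 14454.5 and 10813.5. Cells of at least 4000 UMIs were also thinned to 4000, the others left out and the classes cut again. The shares were then 0.634% and 3.16%, in the same order. In library Runx3 this left out 22 of the 322 C1q+ Ly6c2+ cells and 251 of the 898 monocytes before the new cut. A doublet score marked 9.66% and 9.63% of the C1q+ Ly6c2+ cells, against 9.51% and 6.54% of all kept cells. It marked 8.47% and 3.01% of the monocytes and 13.7% and 5.07% of the Ly6c2-low macrophages. In library Runx3 the C1q+ Ly6c2+ cells thus had the highest marked share of the 3 classes.

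Free RNA was measured in cells that should lack these genes. All 3 C1q genes were detected in 0.290% of B cells and 0.441% of T cells of library Runx3_fl, and in 0.865% and 1.31% of those of library Runx3, at median depths of 19422, 13655.5, 6364 and 8843 UMIs. C1qa stood at 2.31 and 4.44 CPM in B and T cells of library Runx3_fl and at 22.9 and 23.4 CPM in those of library Runx3, far below its level in the C1q+ Ly6c2+ cells. Ly6c2 was not confined to myeloid cells. It stood at 836 and 565 CPM in B and T cells of library Runx3_fl and at 1032 and 368 CPM in those of library Runx3.

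The cells were checked against the 4 marker genes of the class. C1qa (ENSMUSG00000036887, chromosome 4, 136895917 to 136898803) and Ly6c2 (ENSMUSG00000022584, chromosome 15, 75108158 to 75111970) were part of the limits and are given as a description. C1qa was at 714 (679 to 751) CPM in library Runx3_fl and 874 (847 to 902) CPM in library Runx3, below the 1252 (1209.95 to 1295) and 2389.8 (2316 to 2465) CPM of Ly6c2-low macrophages. Ly6c2 was at 1181 (1135 to 1228) and 2416 (2371 to 2463) CPM, close to the 1368 (1341 to 1395) and 2686 (2650.2 to 2722) CPM of monocytes. Ly6c1, a near-identical neighbour on chromosome 15 (75044018 to 75048830), was at 4.68 and 4.05 CPM, and reads could be split between the 2 genes.

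Apoe (ENSMUSG00000002985, chromosome 7, 19696109 to 19699188), which encodes the lipid carrier apolipoprotein E, was not used in the limits and fell between the other classes in both libraries. In library Runx3_fl it was at 190.5 (180.5 to 201) CPM in monocytes, 525 (495 to 557) CPM in C1q+ Ly6c2+ cells and 1216 (1175 to 1259) CPM in Ly6c2-low macrophages. In library Runx3 the same order held at 625 (608 to 642), 2040.2 (1998 to 2083) and 5827 (5712 to 5944) CPM. Saa3 (ENSMUSG00000040026, chromosome 7, 46711998 to 46715700), which encodes the acute-phase protein serum amyloid A3, did not follow that order. It was at 113 (105 to 121), 220.02 (201 to 241) and 40.2 (32.9 to 48.6) CPM in library Runx3_fl, highest in the C1q+ Ly6c2+ cells, and at 227 (217 to 238), 646 (622 to 669.6) and 584 (548 to 622) CPM in library Runx3, where it was a log2 ratio of only 0.14 above the Ly6c2-low macrophages. In library Runx3_fl these levels also differed between C1q+ Ly6c2+ cells with Xist alone and those with Y-linked genes alone, at 1354 and 499.7 CPM for Apoe and 44.9 and 277 CPM for Saa3. Saa3 was no uniform mark of the class, since 32 of 145 and 82 of 322 cells held a UMI of it.

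Apart from the genes of the limits, few genes set the C1q+ Ly6c2+ cells apart from monocytes. Genes with at least 50 CPM in either class of each library were compared through the log2 ratio of CPM + 1, and a gene was counted when it differed by 1 or more, a 2-fold difference, in the same direction in both libraries. Of 3170 genes, 7 were higher (0.221% of those compared) and 11 were lower (0.347%). Because the classes were cut from the same cells by their own RNA, these ratios describe the classes and test nothing. Without cells of 10 or more S100a8 UMIs per 10000, and likewise without cells with an Xist UMI, 7 genes in place of 11 were lower.

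Itga9, Ms4a7, Apoe, Acp5, Il10, Abca1 and 4930430E12Rik were the 7 higher genes. Itga9, an integrin subunit, was at 12.4 (9.91 to 15.2) CPM in monocytes and 90.4 (78.1 to 104) CPM in C1q+ Ly6c2+ cells of library Runx3_fl and at 36.1 (32.1 to 40.5) and 178 (165 to 190.4) CPM in library Runx3, log2 ratios of 2.77 and 2.27. Ms4a7, a membrane protein of macrophages, had ratios of 2.03 and 2.33. Apoe had ratios of 1.46 and 1.71. The others were Acp5, an acid phosphatase (1.18 and 1.28), Il10, the anti-inflammatory cytokine (1.06 and 1.26), Abca1, a cholesterol exporter (1.04 and 1.03), and the transcript 4930430E12Rik (1.01 and 1.06). Just short of the limit in one library were Saa3 (0.96 in library Runx3_fl), Fabp5, a fatty acid binding protein (0.95 and 1.58), and Selenop, a selenium carrier (0.94 and 1.17).

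The lower genes included markers of the monocyte and neutrophil lists. S100a8 and S100a9, the subunits of calprotectin, were lower by log2 ratios of -4.33 and -2.34 and of -3.59 and -2.01. Fn1, which encodes fibronectin, was at 118 (110.3 to 126) CPM in monocytes and 16.9 (11.8 to 23.3) CPM in C1q+ Ly6c2+ cells of library Runx3_fl, and at 206 (196 to 216) and 66.9 (59.5 to 74.9) CPM in library Runx3. Chil3, a chitinase-like protein of newly arrived monocytes, was at 208 (197 to 218) and 78.6 (67.2 to 91.5) CPM in the first library and at 449.5 (435 to 464) and 146 (135 to 157) CPM in the second. These genes were named for their low ratios, so counting intervals that do not overlap follow from that choice and add nothing to the count. Ust, a sulfotransferase, had ratios of -1.80 and -2.05, Ifitm6 had -2.41 and -1.49, Ifitm1 had -2.99 and -1.18, and Plcb1, a phospholipase, had -1.08 and -1.28. Mgst1, Anxa1 and S100a4 completed the count, with ratios of -1.35 and -1.07 for Mgst1, and Rin3 stayed short of it at -1.07 and -0.90.

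Against Ly6c2-low macrophages, 7 of 3163 genes were higher (0.221%) and 22 were lower (0.696%) in the C1q+ Ly6c2+ cells. Of the 7 higher genes, 4 were on the monocyte list. Chil3 had log2 ratios of 2.61 in library Runx3_fl and 3.31 in library Runx3. Hp, which encodes haptoglobin, was at 76.8 (65.5 to 89.5) CPM against 18.0 (13.3 to 23.9) CPM in library Runx3_fl and at 105 (95.6 to 115) against 21.6 (15.1 to 29.9) CPM in library Runx3. Plac8, a monocyte gene, was at 3129.96 (3055 to 3206) against 1136 (1096 to 1178) CPM and at 2852 (2803 to 2902) against 641 (604 to 681) CPM. All 3 genes were highest in monocytes of both libraries. Plcb1 (1.84 and 2.28), the interferon-inducible Ifi27l2a (1.13 and 1.11), Slpi, an inhibitor of leukocyte proteases (1.08 and 1.39), and Thbs1, thrombospondin (1.06 and 1.02), made up the rest. Osm, a cytokine of the interleukin 6 family, came close at 0.92 and 1.01, as did F10, coagulation factor X (0.88 and 1.74), and F13a1, coagulation factor XIII (0.82 and 1.08).

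Of the 22 lower genes, 5 were on the resident macrophage list. Cadm1, an adhesion molecule, had log2 ratios of -3.30 and -3.21, and Mmp13, a collagenase, had -3.02 and -3.67. The tetraspanin Cd81 was at 12.2 (7.95 to 17.8) CPM against 67.6 (58.1 to 78.2) CPM in library Runx3_fl and at 30.4 (25.5 to 36.0) against 311 (285 to 339) CPM in library Runx3. For Cadm1 the level in C1q+ Ly6c2+ cells of library Runx3_fl, 11.2 (7.20 to 16.7) CPM, was no higher than in monocytes, 15.0 (12.3 to 18.2) CPM, while in library Runx3 it was between both neighbours, at 8.36 (6.49 to 10.6), 31.3 (26.3 to 36.9) and 298 (272 to 325) CPM. Ccl12, a ligand of CCR2, had -2.16 and -1.73, Cd72 had -2.01 and -1.71, Ms4a7 had -1.62 and -1.65, and Pltp, a phospholipid carrier, had -1.83 and -1.28. Plxdc2, Slamf9, Cd63, Tmem176b and Rnf180 were the others among the 12 named, with ratios from -2.29 to -1.23.

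**Figure D1:**
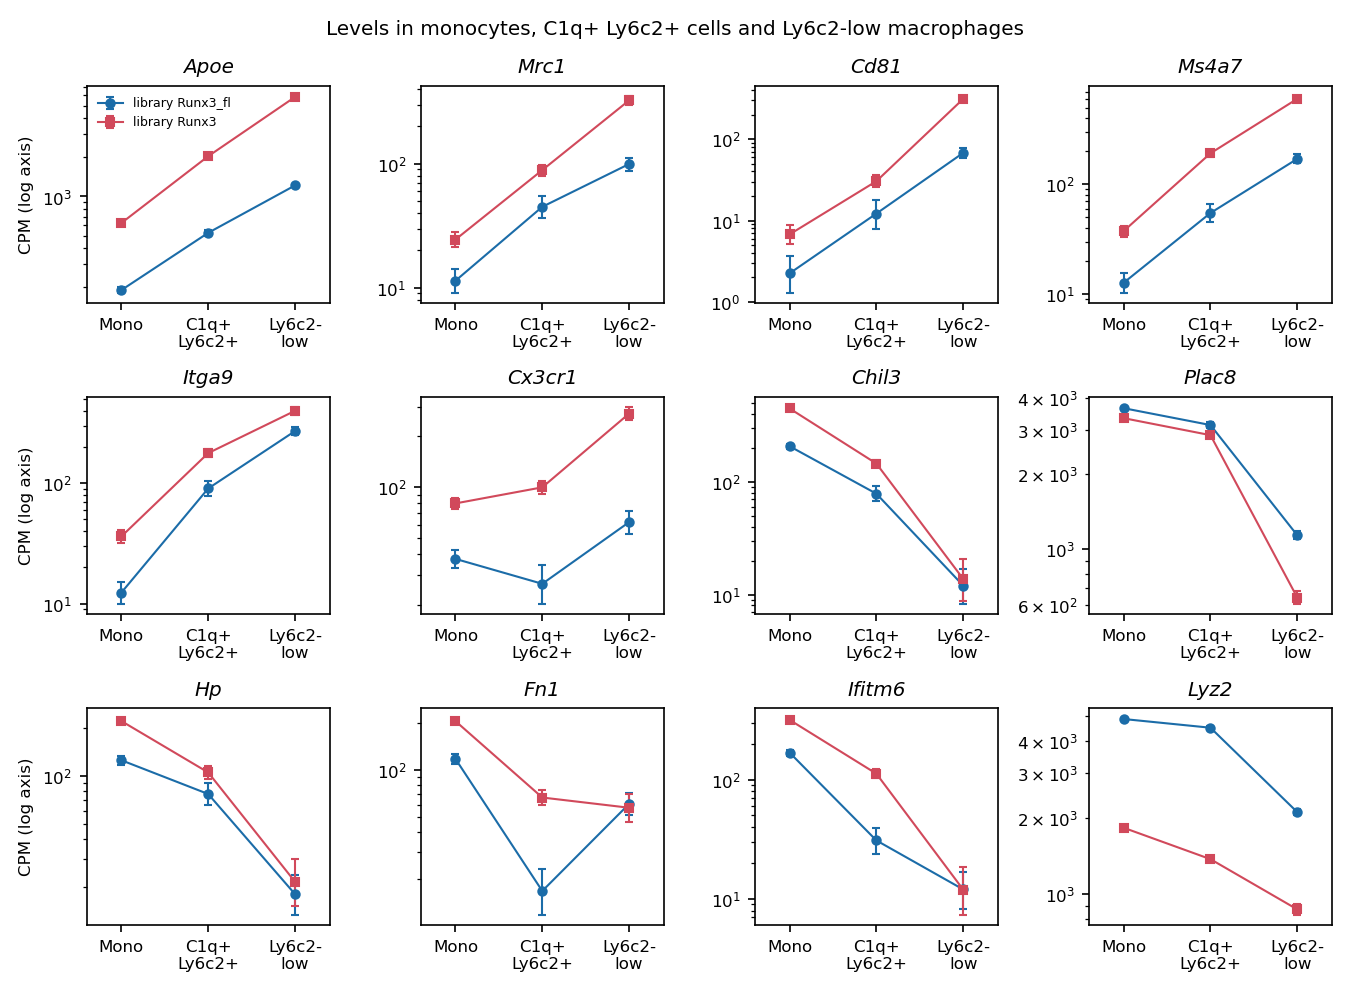
Levels of 12 genes in CPM on a log axis in monocytes (Mono), C1q+ Ly6c2+ cells and Ly6c2-low macrophages. Each point is the summed class of 1 library with its 95% Poisson interval; Apoe, Mrc1, Cd81, Ms4a7 and Itga9 climb from left to right and Chil3, Plac8, Hp and Ifitm6 descend in both libraries, while Lyz2 descends from left to right in both and Cx3cr1 and Fn1 are lowest in the C1q+ Ly6c2+ cells of library Runx3_fl.

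Among genes that reached 50 CPM in any of the 3 classes of each library, none was counted outside both neighbours. Of these 3306 genes, 0 were 2-fold above (0%) and 0 were 2-fold below (0%) monocytes and Ly6c2-low macrophages alike in both libraries. With the minimum at 10 CPM, 1 gene lay above both, Slc7a2, a transporter of arginine, at 75.02 (68.8 to 81.7), 269.6 (248 to 293) and 92.0 (80.8 to 104) CPM in monocytes, C1q+ Ly6c2+ cells and Ly6c2-low macrophages of library Runx3_fl and at 6.64 (4.99 to 8.66), 24.1 (19.7 to 29.1) and 2.396 (0.653 to 6.13) CPM in library Runx3, and 3 lay below both. At 50 CPM the gene highest above both, though short of 2-fold, was Cfb, complement factor B of the alternative pathway, at 278 (266 to 290.4), 500.4 (471 to 531) and 272 (253 to 293) CPM in monocytes, C1q+ Ly6c2+ cells and Ly6c2-low macrophages of library Runx3_fl and at 195 (186 to 205), 344 (327 to 362) and 245 (222 to 269.9) CPM in library Runx3. The smallest of its 4 ratios was 0.49. Cfb was named for the highest such ratio, so counting intervals that do not overlap follow from that choice and add nothing. Edn1, the vasoconstrictor endothelin 1, Spp1, osteopontin, and Aoah, a lipase that inactivates bacterial lipopolysaccharide, followed, with smallest ratios of 0.47, 0.43 and 0.42. Tnf was at 1176 (1131 to 1223) CPM in the C1q+ Ly6c2+ cells against 711 (692 to 731) in monocytes and 929 (893 to 966) in Ly6c2-low macrophages of library Runx3_fl, and at 386 (368 to 405) against 287 (275 to 299) and 271 (246 to 297) CPM in library Runx3. On the low side Gpr183, an oxysterol receptor that guides cell position, was lowest in the C1q+ Ly6c2+ cells, at 19.2 (13.8 to 26.0) and 27.7 (23.0 to 33.0) CPM, with its nearest ratio at -0.64.

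A place between the neighbours was computed for each gene that separated them. Monocytes and Ly6c2-low macrophages differed 2-fold in the same direction in both libraries in 83 genes, 34 higher in monocytes and 49 higher in Ly6c2-low macrophages. On the log2 scale, with monocytes at 0 and Ly6c2-low macrophages at 1, the C1q+ Ly6c2+ cells had a median place of 0.52 (quartiles 0.36 and 0.65) in library Runx3_fl and 0.39 (0.31 and 0.54) in library Runx3. They lay between the neighbours for 79 of the 83 genes in the first library and for 83 of 83 in the second. The C1q+ Ly6c2+ cells share the Ly6c2 limit with monocytes and the C1q limits with Ly6c2-low macrophages. The genes were chosen because they separate those classes. A place between them can follow from the limits and the choice of genes, so these counts are a description. The exceptions were Plxdc2 and Cadm1, which lay beyond the monocytes, and Ifitm1 and Wfdc17, which lay beyond the Ly6c2-low macrophages.

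Which side of the gene set, higher in monocytes or higher in Ly6c2-low macrophages, had the higher median place depended on the scale. On the log2 scale, genes higher in monocytes had a median place of 0.33 in library Runx3, nearer to monocytes for 30 of 34 genes, and genes higher in Ly6c2-low macrophages had 0.49, nearer to monocytes for 26 of 49. In library Runx3_fl the log2 medians were 0.51 and 0.53. On a linear scale the order of the sides turned, with 0.49 for genes higher in monocytes and 0.27 for genes higher in Ly6c2-low macrophages in library Runx3, and 0.63 and 0.33 in library Runx3_fl. Over all 83 genes the linear medians were 0.46 in library Runx3_fl and 0.39 in library Runx3. With cells thinned to 4000 UMIs, smaller cells left out, and the classes and separating genes chosen again, the log2 medians were 0.57 and 0.56. The gap between the libraries was not kept in that setting, which changes more than depth. The genes share the cells and the depth of a class, so the spread over genes is no error of the place.

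**Figure D2:**
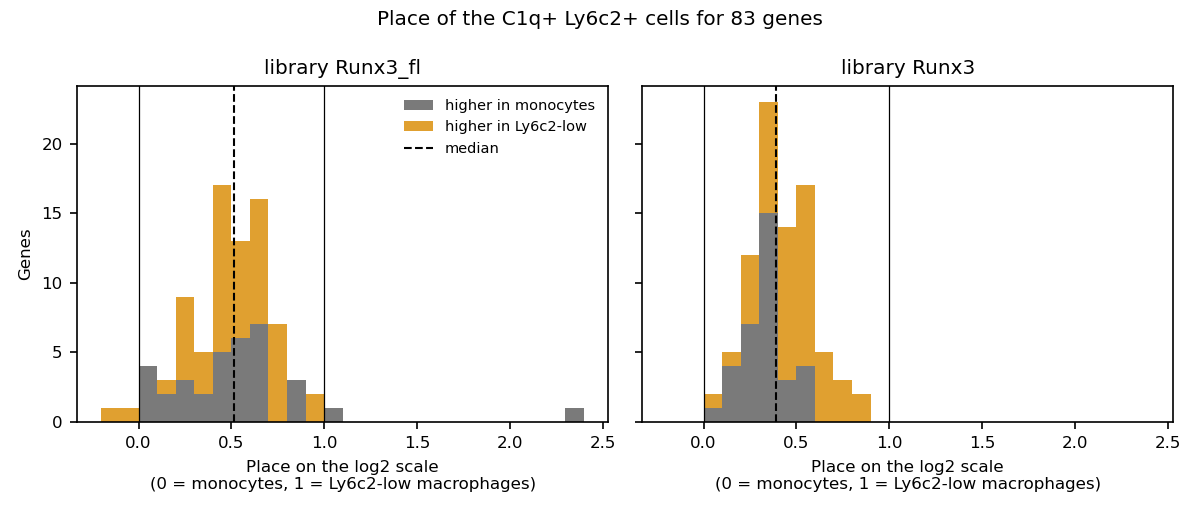
Number of genes by place of the C1q+ Ly6c2+ cells on the log2 scale, with monocytes at 0 and Ly6c2-low macrophages at 1, for the 83 genes that separate those classes in both libraries. The dashed median is at 0.52 in library Runx3_fl and at 0.39 in library Runx3, and the gene far to the right in library Runx3_fl is Ifitm1.

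Monocyte markers were described from a list of 19 genes. Of 18 compared with monocytes, 0 were higher and 3, Fn1, Chil3 and Ifitm6, were lower, with median log2 ratios of -0.44 in library Runx3_fl and -0.37 in library Runx3 against -0.02 and -0.01 over all genes. Of 15 compared with Ly6c2-low macrophages, 4 were higher, Thbs1, Chil3, Plac8 and Hp, and 0 were lower, with medians of 0.81 and 1.17 against 0.00 and 0.04 over all genes. Ccr2, the receptor that draws monocytes out of bone marrow, was at 341 (328 to 355), 357 (332 to 383) and 254 (235 to 274) CPM in monocytes, C1q+ Ly6c2+ cells and Ly6c2-low macrophages of library Runx3_fl, and at 419.6 (406 to 434), 357 (339 to 375) and 184 (164 to 206) CPM in library Runx3. In library Runx3_fl the C1q+ Ly6c2+ cells kept the Ccr2 level of monocytes within the counting intervals. Vcan, which encodes versican, was at 88.9 (82.1 to 96.1), 49.2 (40.2 to 59.5) and 11.6 (7.91 to 16.5) CPM and at 110.3 (103 to 118), 52.2 (45.7 to 59.4) and 5.99 (2.87 to 11.0) CPM. It stood lower at each step from monocytes to Ly6c2-low macrophages. Itgam, which encodes the CD11b of the label, was at 163 (146 to 181) and 218 (204 to 232) CPM in the C1q+ Ly6c2+ cells.

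Resident macrophage markers came from a list of 25 genes, of which 4 reached 50 CPM in either class of each library for the comparison with monocytes. Il10 was the 1 counted higher and 0 were lower. Against Ly6c2-low macrophages 10 were compared, 0 were higher and 5 were lower, Mrc1, Pltp, Cd81, Cx3cr1 and Cd63, with medians of -0.96 and -1.31. Mrc1, which encodes CD206, was at 11.4 (9.04 to 14.1), 44.9 (36.4 to 54.9) and 99.5 (87.9 to 112) CPM in library Runx3_fl and at 24.5 (21.2 to 28.1), 88.9 (80.4 to 98.1) and 325 (298 to 353) CPM in library Runx3, so the C1q+ Ly6c2+ cells had more than monocytes and less than Ly6c2-low macrophages. Cx3cr1, the fractalkine receptor, was at 37.5 (33.1 to 42.3), 26.7 (20.2 to 34.6) and 62.0 (52.9 to 72.2) CPM and at 80.0 (74.0 to 86.4), 99.7 (90.6 to 109) and 273 (249 to 299) CPM, lowest in the C1q+ Ly6c2+ cells of library Runx3_fl, where the interval overlapped that of monocytes. Adgre1, which encodes F4/80, was at 90.2 (83.3 to 97.4), 121 (107 to 137) and 129.6 (116 to 144) CPM and at 116 (109 to 124), 189 (176 to 202) and 347 (319.7 to 377) CPM. In library Runx3_fl its level in the C1q+ Ly6c2+ cells was that of Ly6c2-low macrophages within the intervals.

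Several markers of long-lived macrophages were at or near 0. Vsig4 had 0 UMIs in all 3 classes of both libraries. In the C1q+ Ly6c2+ cells of library Runx3_fl, Cd163, Timd4, Lyve1, Cbr2, Ccl24 and Gas6 also had 0 UMIs, which allows up to 1.40 CPM. In those of library Runx3, Cd163 was at 1.13 CPM, Timd4 and Lyve1 were each at 0.225 CPM, and Folr2 was at 5.40 CPM. Pf4, platelet factor 4, was at 29.9 CPM in the C1q+ Ly6c2+ cells and 269 CPM in Ly6c2-low macrophages of library Runx3. Timd4 was at 6.76 and 6.59 CPM in Ly6c2-low macrophages of libraries Runx3_fl and Runx3.

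Few differences were seen in transcription factor genes. Of 17 compared with monocytes and 16 with Ly6c2-low macrophages from a list of 23, 0 were past the 2-fold line in both libraries. Maf, a transcription factor of macrophages, was at 47.2 (42.3 to 52.5), 88.5 (76.3 to 102) and 106 (93.6 to 119) CPM in monocytes, C1q+ Ly6c2+ cells and Ly6c2-low macrophages of library Runx3_fl and, in library Runx3, at 104 (96.8 to 111), 213 (200.02 to 227) and 365 (337 to 396) CPM. Nr1h3, the sterol-sensing LXR alpha, was under 50 CPM in library Runx3_fl and had ratios over monocytes of 1.52 and 1.73. Runx1, which is of the same family as Runx3, was at 1141 (1117 to 1166), 792 (754 to 830.3) and 722 (690.3 to 755) CPM and at 1434 (1408 to 1460.2), 1229 (1196 to 1262) and 1247 (1194 to 1302) CPM, lower in the C1q+ Ly6c2+ cells than in monocytes in both libraries.

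Genes of antigen presentation, lysosomes and opsonin uptake gave no counted gene against either neighbour. Of the MHC class II list, 10 of 11 genes were compared with each class and 0 passed the 2-fold line in either direction. H2-Ab1 was at 3696 (3651 to 3741), 4635 (4544 to 4727) and 5356 (5269 to 5445) CPM and at 2698 (2663 to 2734), 3396 (3342 to 3451) and 5559 (5446 to 5673) CPM, a stepwise increase in both libraries. All 14 lysosomal genes were compared and 0 were counted, with median ratios over monocytes of 0.36 and 0.42 and over Ly6c2-low macrophages of -0.05 and -0.23. Lgmn, which encodes the protease legumain, was at 211 (200.2 to 222), 318 (294 to 343) and 551 (523 to 580.3) CPM and at 518 (502 to 533), 975 (946 to 1005) and 1491 (1433 to 1551) CPM. Among complement and Fc receptor genes 10 and 11 of 15 were compared and 0 were counted. Fcgr4, an activating Fc receptor, had ratios over monocytes of 0.90 and 0.86, and C3ar1, the receptor for C3a, had 1.93 and 1.68 but was at only 47.3 CPM in the C1q+ Ly6c2+ cells of library Runx3_fl.

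Of the lipid handling list, 12 of 18 genes were compared. Abca1 and Apoe were higher than in monocytes, 0 were lower, and Apoe alone was lower than in Ly6c2-low macrophages. Abca1 was at 144 (135 to 153), 296 (273 to 319.9) and 362 (339.9 to 386) CPM and at 111 (104 to 119), 229 (215 to 243) and 343 (316 to 372) CPM. Trem2, a lipid-sensing receptor, was low, at 8.89 and 22.1 CPM, against 79.7 CPM in Ly6c2-low macrophages of library Runx3. Of 4 scavenger and efferocytosis genes compared, 0 were counted against either class, and the efferocytosis receptor Mertk, under 50 CPM in library Runx3_fl, had ratios over monocytes of 1.74 and 2.25.

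Cytokine and chemokine lists gave 1 counted gene. Of 6 inflammatory cytokine genes compared with each class, 0 were counted. Of 11 chemokine genes compared with monocytes 0 were counted, and of 12 compared with Ly6c2-low macrophages Ccl12 was lower. Il1b was at 3802 (3757 to 3848), 5413 (5314 to 5512) and 5373 (5285 to 5461) CPM and at 1432 (1406 to 1458), 2011 (1969 to 2053) and 1518 (1459.8 to 1579) CPM. Il10 was at 174 (164 to 184), 363 (338 to 389.8) and 369.5 (347 to 393) CPM and at 74.3 (68.5 to 80.4), 179.8 (168 to 193) and 219.8 (198 to 243) CPM. In library Runx3_fl the C1q+ Ly6c2+ cells thus had the Il1b and Il10 levels of Ly6c2-low macrophages within the intervals, both above those of monocytes. Of the acute phase and IL-1 list, 10 of 15 genes were compared with each class, and Slpi, higher than in Ly6c2-low macrophages, was the 1 gene counted. The interferon-gamma, type I interferon, pattern recognition, glycolysis and hypoxia, haem and iron, cell cycle and stress lists held 0 genes past the 2-fold line against either class.

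Among the C1q+ Ly6c2+ cells, some genes followed the order of Ly6c2 and others did not. Ly6c2 was part of the limits, so this order is a description of the cells that were chosen. From 3 to 10 Ly6c2 UMIs per 10000, over 10 to 30, to 30 and more, Plac8 was at 2627, 3834 and 4188 CPM in library Runx3_fl (84, 50 and 11 cells) and at 1578, 2675 and 4150 CPM in library Runx3 (83, 156 and 83 cells). Chil3 was at 61.3, 82.9 and 209.7 CPM and at 26.6, 149.5 and 231 CPM. Both genes were higher in every step of Ly6c2. C1qa was at 739, 718 and 487 CPM and at 1088, 914 and 637 CPM, and H2-Ab1 was at 4830, 4481 and 3654 CPM and at 4027, 3375 and 2945 CPM, lower at every step. Apoe was at 2615, 2138 and 1425 CPM in library Runx3, and at 566, 433 and 602 CPM in library Runx3_fl, where the highest bin of 11 cells broke the order. Mrc1 was at 55.1, 30.02 and 27.1 CPM in library Runx3_fl but at 87.1, 73.4 and 117 CPM in library Runx3. Il1b was highest in the middle bin of both libraries, at 5081, 6051 and 5284 CPM and at 1695, 2267 and 1806 CPM. Saa3, at 194, 154 and 758 CPM and at 237, 879.6 and 552 CPM, and Adgre1, at 127, 100.1 and 169 CPM and at 194, 183 and 194 CPM, followed no order. Below the limit, macrophages with 0 Ly6c2 UMIs had C1qa at 1427 and 2729 CPM and Apoe at 1642 and 6287 CPM.

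**Figure D3:**
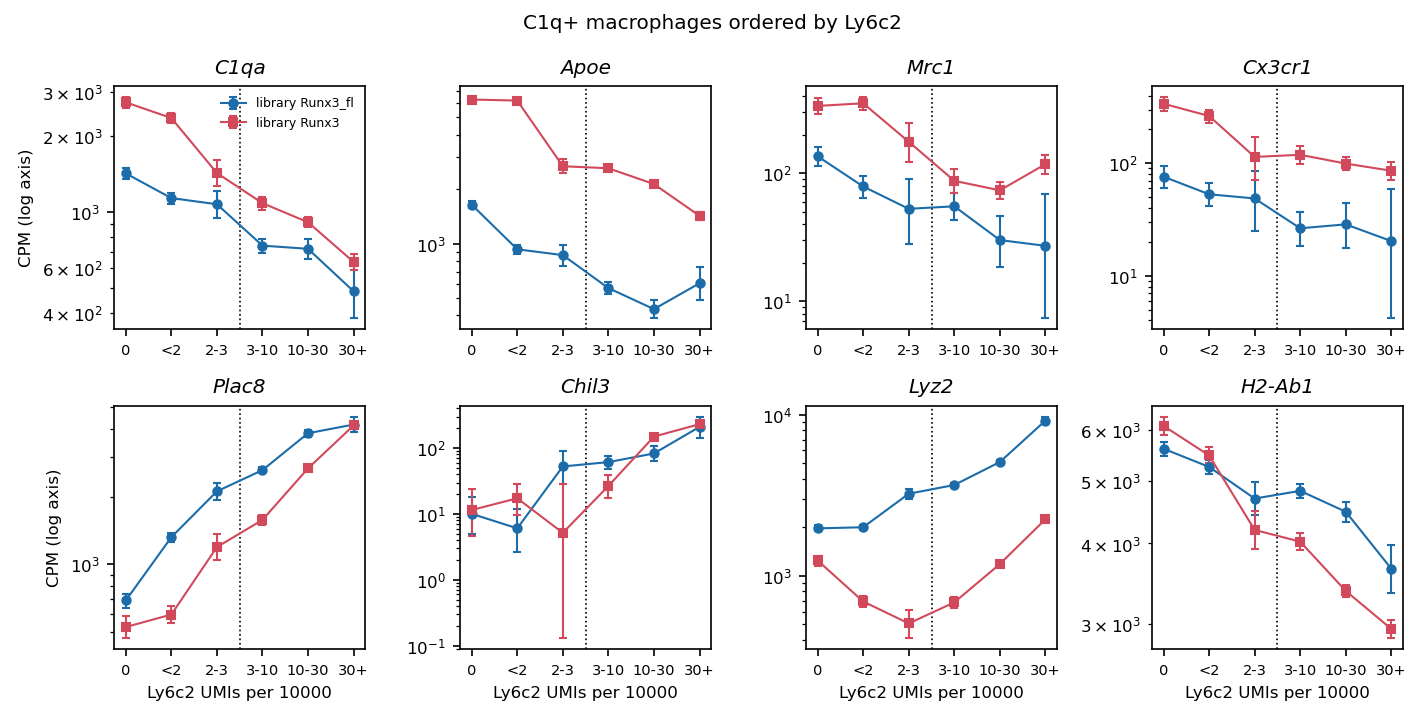
Levels of 8 genes in CPM on a log axis in C1q+ macrophages grouped by their Ly6c2 UMIs per 10000. Points are summed bins of 1 library with 95% Poisson intervals, the dotted line is the limit of 3, and C1qa descends while Plac8 climbs to the right in both libraries, whereas H2-Ab1 descends in library Runx3 and, in library Runx3_fl, is at 4699 CPM just below the limit and 4830 CPM just above it; the highest bin of library Runx3_fl holds 11 cells.

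Along the other axis, cells that passed the Ly6c2 limit were ordered by how many C1q genes they showed. With 0, 1, 2 and 3 of them detected, Apoe was at 190.5, 288, 364 and 525 CPM in library Runx3_fl and at 625, 837, 1321 and 2040.2 CPM in library Runx3, higher at each step. Mrc1 was at 11.4, 49.6, 29.0 and 44.9 CPM and at 24.5, 25.5, 44.1 and 88.9 CPM. Ccr2 showed no such order, at 341, 432, 478 and 357 CPM and at 419.6, 389, 383 and 356.5 CPM. The C1q genes were part of the limits, so this order too is a description of the cells that were chosen. Median depth was also higher at each step, at 12479, 12691, 13229.5 and 13905 UMIs and at 8176.5, 8419.5, 8759 and 12541 UMIs. The part of depth in these levels was not tested.

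Saa3 was carried by a small group of the C1q+ Ly6c2+ cells. In library Runx3_fl 32 of 145 cells had a Saa3 UMI, and in library Runx3 82 of 322 did. The 15 and 33 cells with the most held 94.7% and 98.1% of all Saa3 UMIs, and the highest cells reached 105 and 339 Saa3 UMIs per 10000. At 3 or more per 10000, 15 cells of library Runx3_fl (10.3%, 5.91 to 16.5) and 26 of library Runx3 (8.07%, 5.34 to 11.6) were Saa3-high. Such cells also made up 7.75% and 6.35% of monocytes and 2.75% and 7.97% of Ly6c2-low macrophages, so they were no mark of the C1q+ Ly6c2+ cells. Apoe was spread more widely, with a UMI in 83 of 145 and 302 of 322 cells.

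**Figure D4:**
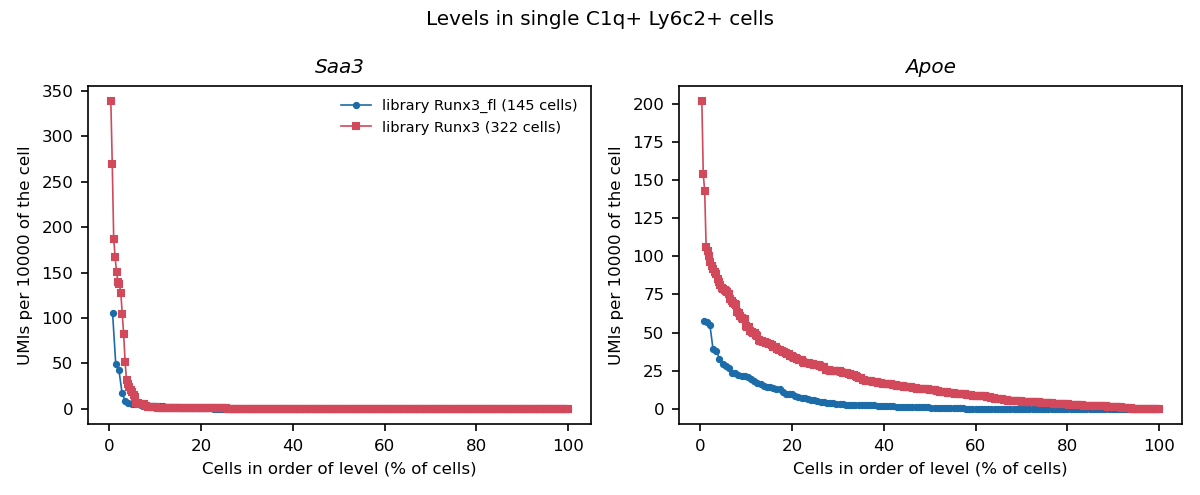
Saa3 and Apoe in UMIs per 10000 UMIs of the cell, for each C1q+ Ly6c2+ cell, in order of level along the x axis in percent of cells. Saa3 drops steeply at the left, with 94.7% and 98.1% of its UMIs in the first 15 and 33 cells, whereas Apoe declines gradually from 57.7 and 202 per 10000 to medians of 0.719 and 12.6.

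The Saa3-high cells were compared with the 113 and 240 C1q+ Ly6c2+ cells that had 0 Saa3 UMIs. These genes were picked after their values were seen, and some rest on few cells. Hp was higher in Saa3-high cells of both libraries, at 283 against 50.5 CPM in library Runx3_fl and 369 against 86.5 CPM in library Runx3, although 1 cell held 56.7% of its UMIs in the first. In library Runx3 the Saa3-high cells also had more Fabp5, at 2173 against 146 CPM with UMIs in 20 of 26 cells, more Ccl5, at 2286 against 352 CPM in 23 of 26 cells, and more Il10, at 603 against 114 CPM in 14 of 26 cells. In library Runx3_fl Fabp5 was lower in Saa3-high cells, at 51.9 against 124 CPM, Ccl5 was higher by less, at 2399 against 1665 CPM, and the intervals of Il10 overlapped, at 293 against 362 CPM. C1qa was at 656 against 749.5 CPM in library Runx3_fl and 812 against 909 CPM in library Runx3, with overlapping intervals in both.

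Between the libraries the C1q+ Ly6c2+ cells differed in many genes. Among 3704 genes that reached 50 CPM in either library, 338 were 2-fold or more higher in library Runx3 (9.13%) and 166 were lower (4.48%), with a median log2 ratio over all genes of 0.07. Since each library was 1 pool, these differences cannot be told apart from differences between pools, preparations or sequencing runs. Library Runx3 also had the higher Ly6c2 level, with a median of 19.0 UMIs per 10000 in the C1q+ Ly6c2+ cells against 8.41 in library Runx3_fl.

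Cytokine and chemokine genes were mostly lower in library Runx3. Of 8 inflammatory cytokine genes compared, 5 were lower, Il6, Il23a, Il12b, Tnf and Tnfsf9, and 0 were higher, with a median log2 ratio of -1.33. Tnf was at 1176 (1131 to 1223) CPM in library Runx3_fl and 386 (368 to 405) CPM in library Runx3, and Il6 at 216 (197 to 237) and 39.8 (34.2 to 46.2) CPM. Of 12 chemokine genes 7 were lower, Cxcl1, Cxcl2, Cxcl9, Cxcl10, Ccl3, Ccl4 and Ccl5, and 4 were higher, Ccl2, Ccl6, Ccl9 and Ccl12. Cxcl9, an interferon-induced attractant of T cells, was at 1753 (1697 to 1810.2) and 279.6 (264 to 296) CPM, and Ccl2, the ligand of CCR2, was at 49.6 (40.6 to 60.0) and 202 (189 to 215) CPM. The CXC ligands counted and the CCR2 ligands Ccl2 and Ccl12 thus differed in opposite directions. Monocytes showed the same direction for Tnf, at 711 and 287 CPM, for Cxcl9, at 1156 and 251 CPM, and for Ccl2, at 101 and 210.00 CPM.

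The acute phase and IL-1 list had 4 of 11 genes lower, Ptgs2, Il1a, Il1b and Acod1, and 2 higher, Lcn2 and Saa3. Il1b was at 5413 (5314 to 5512) and 2011 (1969 to 2053) CPM. Interferon-gamma response genes had 5 of 14 lower, among them Gbp2 (793 and 323 CPM) and Gbp5 (199.9 and 60.5 CPM), and 0 higher. Type I interferon response genes went both ways, with 6 of 15 higher, such as Irf7 (98.8 and 442 CPM) and Slfn4 (12.6 and 216 CPM), and 3 lower, Ifi205, Oasl1 and Rsad2. MHC class II had 0 of 10 past the line in either direction, with a median of -0.46.

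Resident macrophage markers were mostly higher in library Runx3, with 6 of 11 higher, Mertk, Pltp, Cx3cr1, Cd63, Selenop and Hes1, and Il10 lower. The Il10 difference was lost with cells thinned to 4000 UMIs, smaller cells left out and the class cut again, at a log2 ratio of 0.0456. Hes1, a target of Notch signalling, was at 16.9 (11.8 to 23.3) and 302 (286 to 318) CPM, and monocytes differed in the same way at 6.88 and 168 CPM. Apoe was at 525 and 2040.2 CPM, a log2 ratio of 1.96, and Lgmn at 318 and 975 CPM. In B cells Apoe was at 49.0 and 276 CPM. Mrc1 had a log2 ratio of 0.97, short of the line. Lyz2, the lysozyme gene whose promoter drives the Cre of the study, was lower in library Runx3, at 4511 (4421 to 4602) and 1375 (1341 to 1410.01) CPM. Genes of stress and of tissue dissociation had 12 of 20 higher and 0 lower, with a median of 1.16, and Hspa1a was at 143 (128 to 160.2) and 1624 (1586 to 1662) CPM. The part of that stress signal in the other differences was not tested.

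**Figure D5:**
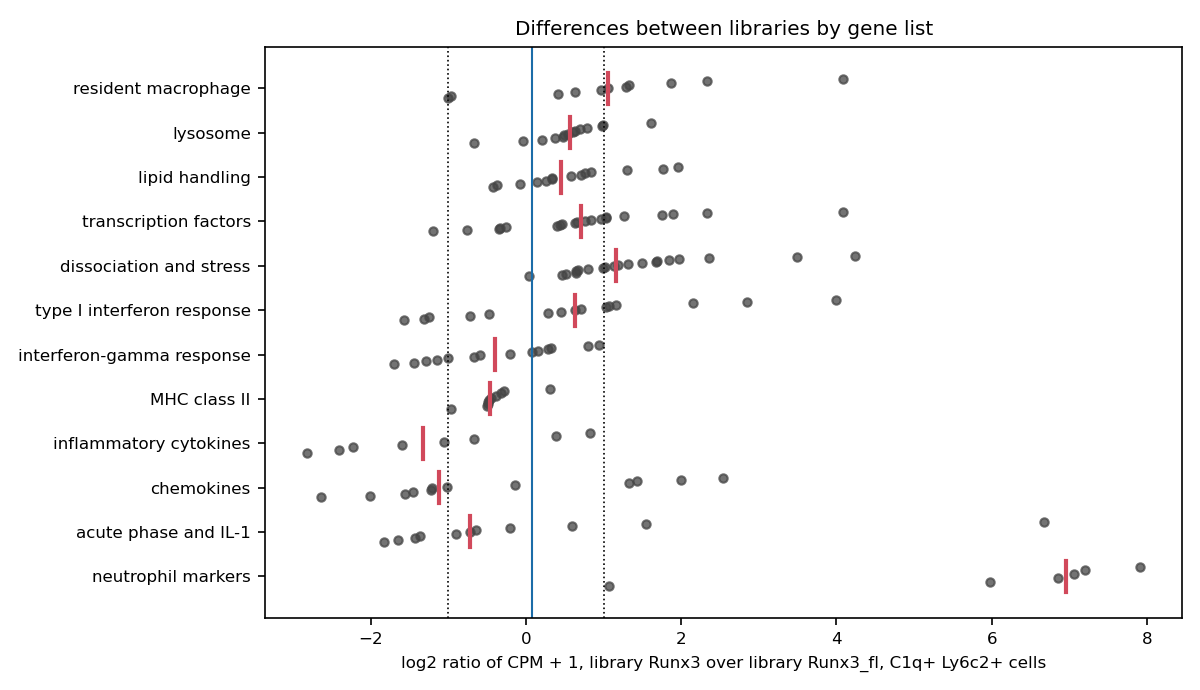
Log2 ratio of CPM + 1 of library Runx3 over library Runx3_fl in C1q+ Ly6c2+ cells, with 1 point per gene that reached 50 CPM in either library, grouped by list. The red bar is the list's median, the blue line the median of all genes at 0.07, and the dotted lines the 2-fold limits; stress and resident macrophage lists lie mostly to the right, inflammatory cytokines to the left, and neutrophil markers far to the right.

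The largest ratios between the libraries were those of neutrophil granule genes. S100a8 was at 5.15 (2.57 to 9.21) CPM in library Runx3_fl and 906 (878 to 934) CPM in library Runx3, but B cells of library Runx3 held S100a8 at 874 CPM and T cells at 91.9 CPM. Ngp, Camp and Retnlg had 0 UMIs in library Runx3_fl and were at 240.4 (226 to 255), 132 (121 to 143) and 115 (105 to 125) CPM in library Runx3, at least 171-fold, 93.9-fold and 81.6-fold higher against a floor of 3 UMIs over the class. Most S100a8 came from few cells, since 33 of the 322 C1q+ Ly6c2+ cells of library Runx3 held 92.3% of its UMIs. All 6 neutrophil markers compared were higher in library Runx3, and the list of 9 summed to 101 CPM in library Runx3_fl and 2586 CPM in library Runx3.

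On the low side the largest ratios after Xist were those of Gm16685 (176 and 10.1 CPM), Heatr9 (52.9 and 3.83 CPM), Slc7a2 (269.6 and 24.1 CPM), and Procr, the endothelial protein C receptor (176 (159 to 195) and 18.2 (14.5 to 22.7) CPM). Xist itself was at 61.8 CPM and at 0.

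Among genes that the study named for its macrophages, 5 of 19 were higher and 5 lower in library Runx3. Nr4a1, an orphan nuclear receptor, was at 113 (99.5 to 128) CPM in library Runx3_fl and 382 (364 to 401) CPM in library Runx3, and Zfp36, which encodes a protein that speeds the decay of cytokine mRNAs, was at 693 (658 to 729) and 1441 (1406 to 1476) CPM. Within each library neither gene was counted against a neighbour. Nr4a1 was at 185 (175 to 196) and 140.1 (126 to 155) CPM in monocytes and Ly6c2-low macrophages of library Runx3_fl and at 436 (422 to 451) and 309 (283 to 337) CPM in those of library Runx3. Part of this list was drawn by the study from these samples, so the count is no independent evidence of a direction.

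UMIs of genes on the lists of other lineages were found in most of these cells. At least 2 markers of 1 of the T cell, NK cell, B cell, plasma cell or neutrophil lists were found in 90 of 145 C1q+ Ly6c2+ cells of library Runx3_fl (62.1%) and in 310 of 322 of library Runx3 (96.3%), against 84.3% and 92.2% of all kept cells. The commonest in library Runx3 was Igha, the heavy chain of secreted IgA. Igha had a UMI in 58.6% and 96.6% of the C1q+ Ly6c2+ cells and in 59.2% and 92.4% of kept cells. In library Runx3_fl Csf3r, of the neutrophil list, and Xbp1, of the plasma cell list, were commoner. They were in 64.8% and 63.4% of the C1q+ Ly6c2+ cells there, against 17.3% and 45.9% of kept cells. Igha was also found in T cells, at 185 CPM in library Runx3_fl and 346 CPM in library Runx3. In the C1q+ Ly6c2+ cells it was at 89.4 and 621 CPM. With T cells thinned to an equal depth and smaller cells left out, 26.2% and 72.1% of them held an Igha UMI. An Igha UMI was thus no mark of a plasma cell programme by itself. Csf3r and Xbp1 were not measured in T cells. Where the UMIs of these genes in the C1q+ Ly6c2+ cells came from was not tested. Summed over 7 markers each, plasma cell genes were at 191 and 846 CPM, NK cell genes at 238 and 59.4 CPM, T cell genes at 49.2 and 58.3 CPM and B cell genes at 5.15 and 59.2 CPM, with 5 of the 7 B cell genes at 0 in library Runx3_fl. Of the 10 dendritic cell markers none was at 0 and their sum was 233 and 149.5 CPM. Of the 6 epithelial markers 5 were at 0 in library Runx3_fl and they summed to 1.87 and 27.7 CPM, the 7 stromal and endothelial markers summed to 106 and 181 CPM, the 8 mast cell and basophil markers to 11.2 and 5.63 CPM, and the 5 erythroid markers to 0 and 6.30 CPM. Leaving those cells out turned the log2 ratio of Saa3 over monocytes, as the mean of both libraries, to -1.94 and that of Plcb1 over Ly6c2-low macrophages to -1.57, on 55 and 12 C1q+ Ly6c2+ cells.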

How the data were processed

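Single-cell 3' RNA of 2 pooled libraries was analysed, 1 per group. The deposited UMI counts per gene and cell were made by the authors with Cell Ranger 7.1.0 per the file headers, and mm10 and Seurat 4 are named in the submitters' processing notes. The annotation version is not given in the sources used here. Coordinates are of GRCm38, from GENCODE M21.

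Cells with 200 to 6000 genes and at most 15% mitochondrial UMIs were kept. Doublets were scored against simulated pairs and marked, not removed. The class limits, the members and the gene lists were chosen with earlier results of these data known. UMIs were summed per class and library, scaled to CPM, and compared as the log2 ratio of CPM + 1 among genes of at least 50 CPM, with the 8 genes of the limits left out of the counts. Named genes were those of the lists, the 12 highest and 12 lowest by the smaller ratio of the 2 libraries (10 and 10 for genes outside both classes), and, between libraries, the 12 highest and 12 lowest, all detected in at least 10% of cells of the higher class. Some of these genes are not reported here. Genes of the Saa3-high comparison and Slc7a2 in the class ratios were chosen after their values were seen.

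Intervals were 95% Poisson for levels and Clopper-Pearson for shares, and cover counting error only. A count of 0 allows 3 UMIs. With 1 library per group no test was run. The 2-fold count against monocytes was tested on simulated class sums with counting error only. The other steps were not simulated. The scripts ran under Python 3.11.15 with scikit-learn 1.9.0, scipy 1.17.1, matplotlib 3.10.9, numpy 2.4.6 and pandas 2.3.3. Alternatives changed the limits, filters, depth, pseudocount, scaling and cells left out.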

Additional observations from a re-analysis of the deposited data

Results flagged for a closer look

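For 3 genes the C1q+ Ly6c2+ cells lay on opposite sides of the Ly6c2-low macrophages in the 2 libraries. S100a8 had a log2 ratio over Ly6c2-low macrophages of -5.17 in library Runx3_fl and 2.96 in library Runx3. S100a9, its partner in calprotectin, had -4.01 and 2.20, and the interferon-inducible Ifitm1 had -1.70 and 1.11. The difference between the libraries was not tested, since each is 1 pool. Beside these ratios, S100a8 stood at 874 CPM in B cells of library Runx3 and at 8.82 CPM in those of library Runx3_fl.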

How the results depend on the processing

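Of 176 shares, counts and medians recomputed under 17 other settings, 139 stayed within their tolerance and 37 moved; of 2316 values of named genes 1958 stayed, 352 moved and 6 changed direction. The cause was not tested for any of them. The 3 settings that leave out cells with Xist, with many S100a8 UMIs or with a barcode of both libraries were chosen after seeing the data. Values are given for library Runx3_fl before library Runx3.

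With a Ly6c2 limit of 6 the shares of C1q+ Ly6c2+ cells were 0.774% and 3.42%, and 1 gene lay below both neighbours. With 2 UMIs of each C1q gene the shares were 0.900% and 2.74%, and 15 genes were higher than in monocytes. With at most 5000 genes per cell 11 were higher. Without likely doublets 12 were higher and 1 lay below both neighbours. With cells thinned to 4000 UMIs the shares were 0.634% and 3.16%, 18 genes were lower than in monocytes, 1 lay below both neighbours, the median place in library Runx3 was 0.56, and the ratio of Il10 between libraries turned to 0.0456.

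Without cells that held 2 markers of another lineage the shares were 2.95% and 1.88%. Against monocytes 11 genes were then higher and 31 lower, against Ly6c2-low macrophages 17 were higher, 1 lay above and 3 below both neighbours, and between libraries 870 were higher and 550 lower. The mean log2 ratios turned to -1.94 for Saa3 over monocytes and to -0.00457 for Hp and -1.57 for Plcb1 over Ly6c2-low macrophages, and between libraries to 2.44 for Gzma and -0.75 for Daxx. That setting left 55 and 12 C1q+ Ly6c2+ cells.

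With CPM + 10, 4 genes were higher than in monocytes and 14 lower than in Ly6c2-low macrophages. With genes from 10 CPM, 28 were higher and 41 lower than in monocytes, 18 higher and 61 lower than in Ly6c2-low macrophages, 1 above and 3 below both, and 1125 higher and 271 lower between libraries. Without cells with Xist, 7 genes were lower than in monocytes and 1 lay below both neighbours. Without cells of 10 or more S100a8 UMIs per 10000, the share in library Runx3 was 4.44% and 7 genes were lower than in monocytes. With ratios centred on their median, 277 genes were higher and 181 lower between libraries.

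No paired analysis was possible because each group is 1 library. The depth allows a gene with 0 UMIs in the C1q+ Ly6c2+ cells a level of up to 1.40 CPM in library Runx3_fl and 0.675 CPM in library Runx3.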

Other observations

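Within library Runx3_fl, the C1q+ Ly6c2+ cells with Xist alone (12 cells) and with Y-linked genes alone (111 cells) were set side by side. The former had Mrc1 at 179.6 CPM (115 to 267, Poisson 95%) and the latter at 29.1 CPM (21.4 to 38.7). Slc7a2 was at 576 CPM (455 to 720.1) and 251 CPM (228 to 277). Cells with Xist alone were 8.28% of the C1q+ Ly6c2+ cells of that library, 20.7% of its monocytes, 15.4% of its Ly6c2-low macrophages and 23.2% of all its kept cells.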
